A study of Ovis aries with 32 samples.

Results

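The interventricular septum (IVS) was compared with the left ventricular (LV) free wall in lambs whose mothers had received cortisol in late pregnancy (CORT). All septum and LV samples labelled CORT were taken, which gave 8 IVS and 8 LV arrays, 16 of the 32 samples in the series. The ewes were infused with cortisol at 0.5 mg/kg per day from gestational day 115 until they delivered, and the lambs, which received no cortisol themselves, were studied at 14 days of age. The other 16 arrays hold the same tissues of Control lambs of the same age, born to ewes without an infusion, and were used for comparison. RNA of each sample was labelled and hybridised to a 1-colour Agilent sheep array of 15008 probes, so each value describes a whole piece of tissue, in which fewer cells of a type and less RNA per cell cannot be told apart. The study took both tissues from the hearts of 8 lambs per group, so an IVS and an LV array can come from 1 lamb. The labels do not say which IVS array came from the same lamb as which LV array. The main test has no term for the lamb and treats the 16 arrays as independent. Its p-values measure the spread between these samples only and leave the shared lambs out.

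The septum and the LV free wall are working myocardium of the same pressure chamber. The septum is shared with the right ventricle and carries the bundle branches of the conduction system beneath its surface, while the free wall is supplied by other coronary branches and bears epicardial fat. Cortisol acts on heart muscle through the glucocorticoid receptor (NR3C1) and the mineralocorticoid receptor (NR3C2), and its rise before birth takes part in the maturation of the organs of the fetus. A difference between septum and free wall in CORT lambs describes regional differences within the ventricle of animals exposed before birth, not the effect of cortisol, which the comparison with Control lambs bears on.

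The slides of the arrays limit the comparison from the outset. The LV arrays lay on 2 slides (slides 1 and 2) and the IVS arrays on 3 others (slides 3 to 5), so slide and tissue cannot be told apart. Slide 5, with 4 CORT septa, was scanned on the day of the LV slides, and these 4 arrays were also set against the LV on their own. Local background was higher on the IVS arrays (41 to 52 intensity units) than on the LV arrays (35 to 43; exact permutation p = 0.00109, adjusted p = 0.00653 over 6 measures of quality). The spike-in spots, RNA of known amount added to each sample, had slopes of 0.909 to 0.978 on slides 3 and 4 and of 1.03 to 1.09 on the other slides, and over all IVS against all LV arrays the adjusted exact permutation p was 0.0121. The share of probes well above background did not separate the tissues (67.3 to 80.4% on IVS arrays and 59.7 to 77.6% on LV arrays, adjusted exact permutation p = 0.583). These permutation tests treat the 16 arrays as independent, although arrays of 1 slide can be alike. Local background, for example, was 51 to 52 on slide 3 and 52 on slide 4. Their p-values therefore cannot tell tissue from slide. The part of these measures in the results was not tested.

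Both CORT septa on slide 3, replicates 1 and 2, stood apart from all other arrays. On the first principal component, which held 38.0% of the variance, they lay at -49.5 and -44.3, while the other 14 arrays lay between -7.31 and 15.8. Of 1171 named probes that could be tested, 286 passed the threshold between these 2 arrays and the LV, 112 higher and 174 lower on slide 3, beside 3217 of all 11851 probes (27.1%). MYL11 and TNNC2, which encode the regulatory light chain and the troponin C of fast skeletal muscle, were 4.08 ± 0.30 and 4.02 ± 0.14 (SE) log2 units higher there than in the LV. PRLH had the largest increase of a named gene (4.69 ± 0.37). LPAAT (2.52), SLC16A1 (2.19) and LHB (1.93) were the others among the 6 largest increases. On a scale common to all 32 arrays, TNNC2 was at log2 13.2 and 13.4 on both CORT slide 3 arrays, between 9.02 and 9.49 on the other CORT septa, and between 9.17 and 9.63 in the CORT LV. MYH1 and MYH2, the myosin heavy chains of fast skeletal fibres, and MYF5 were not well above background on any of the 16 arrays. The high TNNC2 level was also present on the Control septa 1 to 3 and on Control LV replicate 2 (13.4 to 13.9), where MYL11 was at 7.88 to 9.58. Lower on slide 3 was the ribosomal protein gene RPL14 (-1.20 ± 0.09). Counts are given below with and without slide 3.

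**Figure D1:**
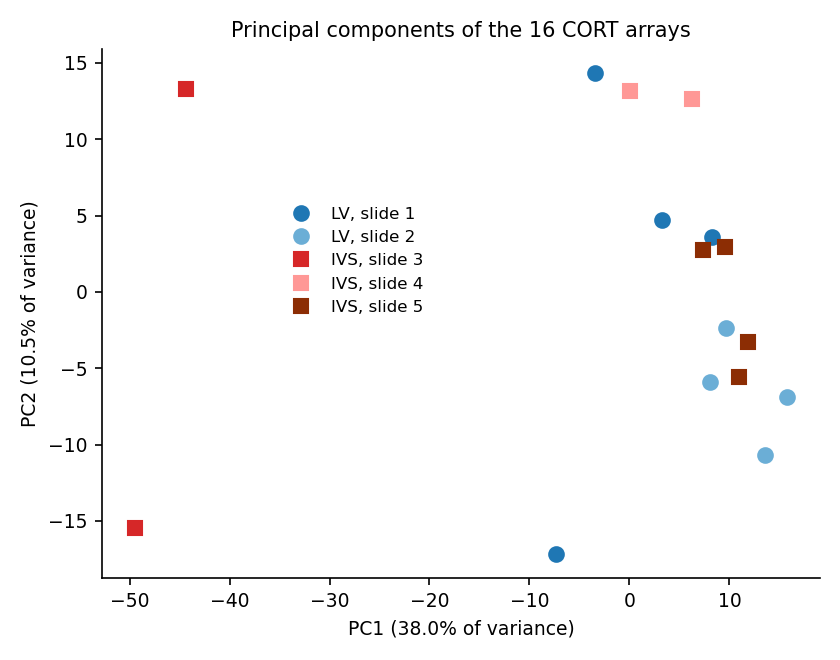
First 2 principal components of the 16 CORT arrays over all probes tested, in units of log2 intensity, with the share of variance on each axis. Each point is 1 array, circles for LV and squares for IVS, coloured by slide. The IVS arrays of slide 3 lie at -49.5 and -44.3 on the first component and all others between -7.31 and 15.8, with LV and IVS arrays of the other slides intermixed.

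Few transcripts separated the septum from the LV in CORT lambs. Of 11852 probes tested, 22 (0.186%) differed at a Benjamini-Hochberg p under 0.05 in the moderated test of limma, 15 higher and 7 lower in the IVS. At an unadjusted p under 0.05 the count was 1538 (13.0%), 676 higher and 862 lower. The differences were small: among the 22 probes they ranged from 0.28 to 0.93 log2 units in size, none reached 2-fold, and the median over all probes was 0.09 in size with a median SE of 0.10. Among all probes tested, 12 had a mean more than 2-fold higher and 7 more than 2-fold lower in the septum, and none of these 19 passed the threshold. The values of the 8 septa and the 8 LV samples did not overlap for 30 probes (0.253%), among them 10 of the 22. No probe passed when slide entered the fit as a random block (494 at an unadjusted p under 0.05, correlation within slides 0.42), and 43 passed without slide 3 (32 higher and 11 lower in the IVS). Single arrays also moved the count. Without IVS replicate 1 or 6 or LV replicate 8, 1 probe passed, and without LV replicate 3 there were 61.

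Few of the probes could be named from the sources used here. Of 15008 probes, 1619 could be given 1 symbol (990 genes), and 766 genes were bright enough to test. Among the 22 probes, 2 carried a gene name, AGGF1 and EIF4G1, both higher in the septum. AGGF1 encodes an angiogenic factor with G-patch and forkhead-associated domains. EIF4G1 encodes the scaffold protein of the cap-binding complex that recruits ribosomes to mRNA. Another gene, GHR, the receptor of growth hormone, passed when only the septum slide scanned with the LV slides was used. The probes of these genes are 60 bases long. They are shown because the differences below are measured on these sequences, together with 4 unnamed probes that were chosen after their values were seen, 2 higher and 2 lower in the septum. They are given 5′ to 3′ as the scanner files hold them, and their positions in the genome were not analysed here.
AGGF1: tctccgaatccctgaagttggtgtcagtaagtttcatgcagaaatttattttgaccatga
AGGF1, the other probe: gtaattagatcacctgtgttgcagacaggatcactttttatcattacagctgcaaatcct
EIF4G1: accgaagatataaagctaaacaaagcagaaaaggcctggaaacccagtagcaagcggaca
GHR: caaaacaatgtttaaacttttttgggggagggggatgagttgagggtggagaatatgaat
Unnamed probe A_70_P055401, higher in IVS: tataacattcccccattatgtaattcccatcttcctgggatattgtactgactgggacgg
Unnamed probe A_70_P008631, higher in IVS: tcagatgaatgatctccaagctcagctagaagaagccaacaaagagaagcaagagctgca
Unnamed probe A_70_P028026, lower in IVS: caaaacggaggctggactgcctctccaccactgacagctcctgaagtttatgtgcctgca
Unnamed probe A_70_P014956, lower in IVS: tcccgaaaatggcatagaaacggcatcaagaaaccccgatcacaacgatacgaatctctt
The 15 probes higher in the septum had a median GC content of 43.3% and the 7 lower ones of 45.0%, beside 43.3% over all probes tested. Across the 11852 probes, which share the same arrays and are not independent, GC content correlated with the IVS minus LV difference at r = -0.15 in CORT lambs.

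AGGF1 was 1.40-fold higher in the septum of CORT lambs. Its log2 intensity was 10.16 to 10.56 in the 8 IVS samples (median 10.42) and 9.70 to 10.20 in the 8 LV samples (median 9.91). In all, 7 of 8 septa lay above the highest LV sample, and IVS replicate 3 lay just below it, at 10.16. The difference was 0.49 ± 0.08 log2 units (SE, adjusted p = 0.0252, exact permutation p = 0.000311). With the slide 5 septa alone it was 0.58 (adjusted p = 0.0395), and without slide 3 it was 0.49 (adjusted p = 0.0312). The other AGGF1 probe differed by 0.41 ± 0.10, with an adjusted p of 0.0798. The permutation p of AGGF1, and that of EIF4G1 below, rests on the same arrays that picked the gene and leaves slide out. It is not separate evidence.

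EIF4G1 showed a difference of the same size, 0.49 ± 0.09 log2 units (adjusted p = 0.0252, exact permutation p = 0.000311). The septa ranged from 7.67 to 8.14 (median 7.89) and the LV samples from 7.17 to 7.72 (median 7.39). The groups overlapped only through IVS replicate 2, at 7.67, which lay below LV replicate 1 at 7.72. For the 4 septa of slide 5 the difference was 0.45, with an adjusted p of 0.0843. Both genes kept a positive sign in every alternative fit. AGGF1 stayed past the threshold in 11 of 16 fits without 1 array and in 14 of 19 other settings, and EIF4G1 in 9 of 16 and 14 of 19. Against LV slide 1 alone the adjusted p was 0.237 for AGGF1 and 0.271 for EIF4G1, and with slide as a random block it was 0.997 for both. EIF3A, which encodes the scaffold subunit of initiation factor eIF3 to which eIF4G binds, lay near the threshold and was looked at after its value was seen. Its level was 13.02 to 13.38 in the IVS (median 13.26) and 12.01 to 13.13 in the LV (median 12.62), a difference of 0.64 ± 0.14 with an adjusted p of 0.0574. The second EIF3A probe differed by 0.71 (adjusted p = 0.0541). PPIB, cyclophilin B of the endoplasmic reticulum, was near the threshold in the other direction (-0.43 ± 0.10, adjusted p = 0.0677), at 12.09 to 12.89 in the IVS and 12.79 to 13.25 in the LV.

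In the comparison restricted to the scan day, 24 of 11852 probes (0.202%) passed, 23 higher and 1 lower in the septum. Its LV arrays and its 4 septa are all among those of the comparison of all 16 arrays, and slide still differs between the tissues. It is therefore not separate evidence. With the replicate number as a block, in a fit added after the data were seen, 349 probes passed, 237 higher and 112 lower. In that fit LV replicates 5 to 8, all on slide 2, carry the difference. AGGF1 (0.68, adjusted p = 0.0066), EIF4G1 (0.59, adjusted p = 0.00857) and GHR (0.91, adjusted p = 0.00339) were all higher in the septum there. The same block over all 16 arrays gave an adjusted p of 0.0996 for AGGF1 and 0.0370 for EIF4G1. LV replicates 1 to 4 correlated best with septa of other numbers, so that block may not pair arrays of 1 lamb. Without the block, GHR and AGGF1 were the named genes of the slide 5 comparison. GHR was at log2 9.72 to 9.97 in the 4 slide 5 septa and at 8.63 to 9.52 in the LV, and these 4 septa all lay above the highest LV sample. The difference was 0.85 ± 0.15 (adjusted p = 0.0395). The 4 septa of slides 3 and 4 lay within the LV range, at 8.67 to 9.26, and over all 16 arrays the difference was 0.45 ± 0.18 with an adjusted p of 0.312. On the values of GHR, slide 5 lay apart from both the other septum slides and the LV. Without any 1 of the slide 5 septa, or without LV replicate 1, 4, 5, 6, 7 or 8, the count of this comparison was 0 to 2, and it was 37 without LV replicate 2.

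**Figure D2:**
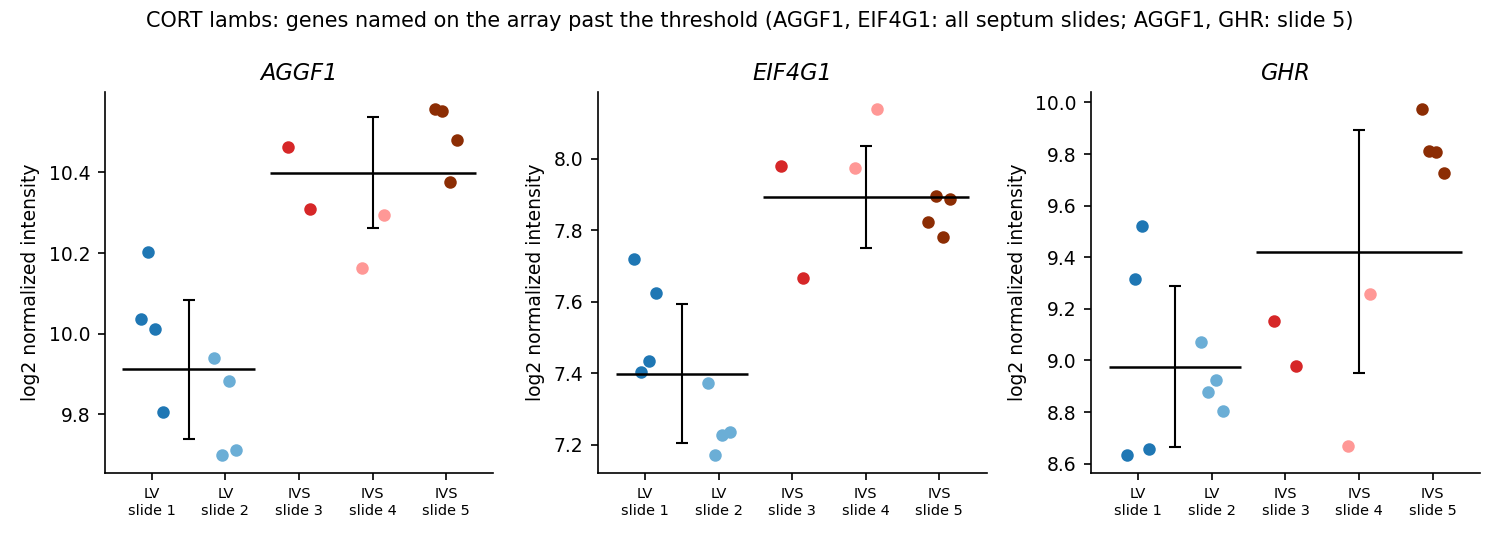
Log2 normalized intensity of AGGF1, EIF4G1 and GHR on each of the 16 CORT arrays, grouped by slide. Each point is 1 array, and lines and bars are the mean and SD of the 8 LV and the 8 IVS arrays. AGGF1 and EIF4G1 were on average 0.49 log2 units higher in the septum, while GHR was higher on slide 5 (9.72 to 9.97) and not on slides 3 and 4 (8.67 to 9.26).

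Some unnamed probes reached larger differences. Probe A_70_P055401 had the lowest p of all, and its groups did not overlap, with 7.76 to 8.29 in the IVS (median 8.13) and 7.20 to 7.59 in the LV (median 7.43). It was 0.66 ± 0.09 log2 units higher in the septum (adjusted p = 0.00698) and passed in all 16 fits without 1 array and in 16 of 19 other settings. Probe A_70_P008631 showed the largest difference of the 22, 0.93 ± 0.16 (adjusted p = 0.0252), from 11.23 to 11.90 in the IVS and from 10.03 to 11.23 in the LV. It passed in 9 of 16 fits without 1 array and in 15 of 19 other settings. With the slide 5 septa alone its difference was 0.79 (adjusted p = 0.129). LV slide 2 lay 0.73 below LV slide 1 on this probe (adjusted p = 0.0597 in limma). Among the probes lower in the septum that passed, A_70_P028026 was lower by the most (-0.52 ± 0.08, adjusted p = 0.0252), with 8.18 to 8.74 in the IVS and 8.72 to 9.07 in the LV. The groups did not overlap for probe A_70_P014956 (-0.39 ± 0.06, adjusted p = 0.0252), which ranged from 12.40 to 12.77 in the IVS and from 12.82 to 13.11 in the LV. Probes A_70_P028026 and A_70_P014956 each passed in 12 of 16 fits without 1 array, and in 13 and 12 of 19 other settings. Between the slides of 1 tissue, 0 of the 22 probes passed in limma, beside 0.692% of all probes between LV slides and 0.160% between IVS slides. At an unadjusted p under 0.05 there were 5 between LV slides and 5 between IVS slides, close to the shares over all probes (19.3% and 20.7%). The 22 were picked on the same arrays for a difference large against the spread within a tissue. These counts therefore cannot show that they are free of slide effects.

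The same contrast in Control lambs, which shares slides but no array with the CORT contrast, gave 67 of 11857 probes (0.565%), 42 higher and 25 lower in the IVS. All 22 probes of CORT lambs had the same direction in Control lambs, beside 73.4% of the 11665 probes tested in both, and 20 of them had an unadjusted p under 0.05 there, beside 2068 of all 11857 probes (17.4%). The threshold was passed in both treatments by 9 probes, 40.9% of the CORT list and 13.4% of the Control list. AGGF1 was 0.42 ± 0.08 log2 units higher in the Control septum (adjusted p = 0.0392) and EIF4G1 0.41 ± 0.07 (adjusted p = 0.0245). GHR differed by 0.15, with an adjusted p of 0.652. In Control lambs, but not past the threshold in CORT lambs, the septum was lower in ATP6V0C, the proton-conducting subunit of the vacuolar ATPase (-0.65, adjusted p = 0.0488), and in AIMP2, a scaffold of the aminoacyl-tRNA synthetase complex (-0.55, adjusted p = 0.0285). In CORT lambs ATP6V0C was at 11.09 to 11.67 in the IVS and at 11.68 to 11.96 in the LV, without overlap (-0.35 ± 0.09, adjusted p = 0.0920), and AIMP2 was at -0.30 ± 0.07 (adjusted p = 0.0720). The Control count was 12 without slide 3 and 8 without the 3 Control septa that stood apart from the other Control arrays, replicates 1 to 3.

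Whether the septum and the LV differed from each other to another extent in CORT than in Control lambs was tested as the interaction over all 32 arrays. None of 12696 probes passed (0%, limma, lowest adjusted p = 0.9996), and 256 (2.02%) had an unadjusted p under 0.05. The median SE of the interaction was 0.14 log2 units. For the 22 probes the difference between the treatments lay between -0.20 and 0.35 log2 units, and none had an unadjusted p under 0.05. For AGGF1 it was 0.04 ± 0.11 and for EIF4G1 0.03 ± 0.11.

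**Figure D3:**
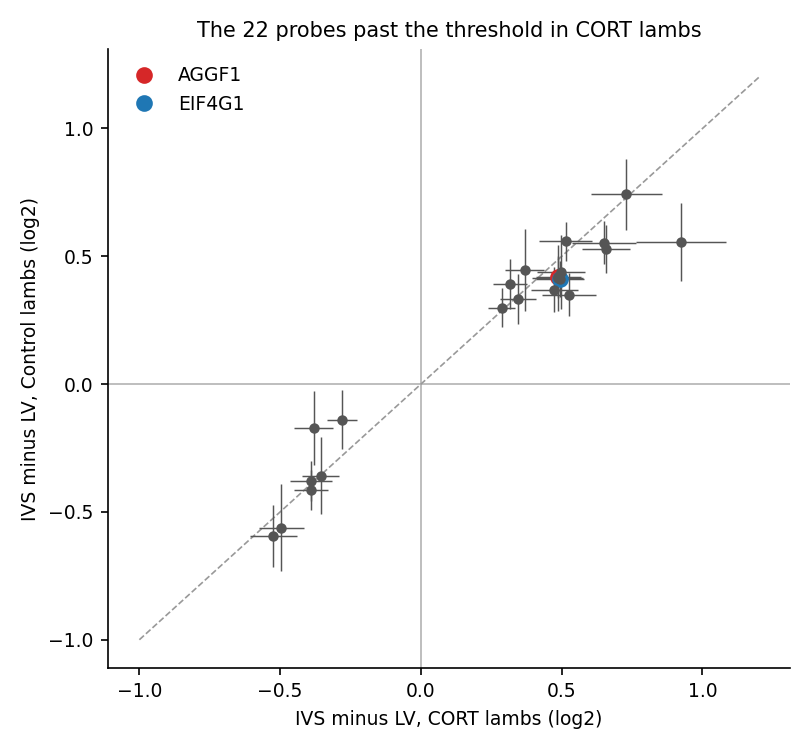
IVS minus LV difference in log2 units of the 22 probes past the threshold in CORT lambs (horizontal axis) and the same difference in Control lambs (vertical axis). Points are probes, bars are SE, and the dashed line marks equal differences. All 22 probes have the same sign in both treatments, and AGGF1 (0.49 and 0.42) and EIF4G1 (0.49 and 0.41) lie close together.

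Slides of the same tissue also differed from each other. Between LV slides 2 and 1, with 4 CORT arrays each, 82 of 11852 probes (0.692%) passed, and 2283 had an unadjusted p under 0.05. Between IVS slide 5 and IVS slides 3 and 4 together, the latter with the 2 arrays that stood apart, 19 probes (0.160%) passed and 2458 had an unadjusted p under 0.05. The median size of the difference was 0.12 log2 units between LV slides and 0.17 between IVS slides, beside 0.09 between the tissues.

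Genes of the contractile apparatus, of chamber identity and of cortisol action showed no difference that passed the threshold. Only 2 of all 766 named genes did, so a short list without one says little about its members. MYH7, the slow myosin heavy chain of the ventricle, was at 11.28 to 11.78 in the IVS (median 11.62) and at 10.84 to 11.90 in the LV (median 11.37), 0.21 ± 0.14 log2 units apart (adjusted p = 0.534), and its other probe had the opposite sign (-0.10). HAND1, a transcription factor of the developing left ventricle, was at 7.02 to 8.07 in the IVS (median 7.49) and at 7.56 to 7.83 in the LV (median 7.66), a difference of -0.16 ± 0.12 (adjusted p = 0.579). The LV range of HAND1 lay within the wider range of the septum. The difference was 0.28 with the slide 3 septa alone (adjusted p = 0.0420) and -0.31 without them (adjusted p = 0.102). The levels of both cortisol receptors overlapped between the tissues, with NR3C1 at 7.12 to 7.77 in the IVS and 7.26 to 7.83 in the LV (-0.11 ± 0.09, adjusted p = 0.662), and NR3C2 at 12.19 to 12.86 and 12.35 to 12.89 (-0.11 ± 0.10, adjusted p = 0.677). The enzymes that regenerate and inactivate cortisol, HSD11B1 (-0.17 ± 0.16, adjusted p = 0.683) and HSD11B2 (-0.18 ± 0.10, adjusted p = 0.444), were within the spread of the samples as well. Of 11 genes of glucocorticoid and renin-angiotensin action that were tested, 4 had a positive and 7 a negative difference, with a median of -0.11. Over all 766 named genes, 296 were positive and 470 negative, with a median of -0.03.

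No gene of energy metabolism passed the threshold, beside 2 of all 766 named genes. Of 19 genes of fatty acid and glucose metabolism, 11 had a positive and 8 a negative difference (median 0.05). LPL, the lipase that releases fatty acids from circulating lipoproteins, was at 13.68 to 14.33 in the IVS (median 13.87) and at 13.45 to 13.62 in the LV (median 13.54). All 8 septa lay above all LV samples on this probe, a difference of 0.38 ± 0.09 (adjusted p = 0.0749, exact permutation p = 0.000155), while 2 other LPL probes differed by -0.01 and -0.04. The groups did not overlap for 30 of all 11852 probes (0.253%). The permutation p restates that lack of overlap and leaves slide out, so it is not separate evidence. CPT1A, a carnitine palmitoyltransferase that admits fatty acids to the mitochondrion, had the largest positive difference of the list (0.54 ± 0.19, adjusted p = 0.236), with 8.38 to 9.82 in the IVS and 7.98 to 9.21 in the LV. PPARG, a nuclear receptor of adipocyte differentiation, had the largest negative one (-0.43 ± 0.18, adjusted p = 0.305). The 8 genes of oxidative phosphorylation had a median difference of -0.05. On a less bright probe of 1 of them, ATP5MC1, all 8 septa lay below all LV samples (-0.28 ± 0.06, adjusted p = 0.058). Its 2 further probes differed by 0.08 and 0.29. Of 23 genes of cytosolic ribosomal proteins 8 were positive and 15 negative (median -0.02), from RPL34 (-0.31 ± 0.09, adjusted p = 0.133) to RPL27A (0.18 ± 0.07, adjusted p = 0.248). The second RPL34 probe differed by 3.8e-05 ± 0.09.

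Growth factor signalling was represented by 14 genes of the IGF, growth hormone and insulin axis, 5 positive and 9 negative (median -0.11). For this and the following lists, the signs over all 766 named genes were 296 positive and 470 negative. IGF2, the fetal growth factor of the axis, was at 14.57 to 15.15 in the IVS (median 14.90) and at 13.96 to 14.81 in the LV (median 14.55), a difference of 0.38 ± 0.12 (adjusted p = 0.184). IGF1, the mediator of growth hormone action, differed by -0.35 ± 0.14 (adjusted p = 0.283), and the IGF-binding proteins IGFBP3 and IGFBP6 by -0.37 ± 0.12 (adjusted p = 0.174) and -0.25 ± 0.07 (adjusted p = 0.103). No gene of the axis passed over the 16 arrays, and GHR passed on slide 5 alone. Of 31 genes of the extracellular matrix and the TGF-beta family, 7 were positive and 24 negative (median -0.04), from INHA, the inhibin alpha subunit (-0.50 ± 0.21, adjusted p = 0.332), to COL4A1, a collagen chain of the basement membrane (0.20 ± 0.12, adjusted p = 0.494). Of 25 angiogenic and vasoactive genes, 11 were positive and 14 negative (median -0.02). VEGFA, the main growth factor of endothelium, was at 10.43 to 11.67 in the IVS (median 10.79) and at 9.77 to 11.23 in the LV (median 10.14), a difference of 0.54 ± 0.20 (adjusted p = 0.245). PTGS1, the constitutive cyclooxygenase, lay at the other end of that list (-0.40 ± 0.15, adjusted p = 0.273). Of 13 stress response and immediate early genes, 9 were positive and 4 negative (median 0.07), from MYC (-0.29 ± 0.11, adjusted p = 0.273) to the heat shock gene HSPA1A (0.50 ± 0.26, adjusted p = 0.419). Further lists held few measured genes, with 6 tested of calcium handling and ion transport (median -0.11), 3 of the contractile apparatus (0.05), and 2 each of the conduction system (0.05), of chamber patterning (-0.05) and of atrial and natriuretic genes (-0.04), none of which passed the threshold. Of the conduction genes, GJA1, a gap junction protein of working muscle, differed by 0.18, and BMP2 was not well above background on any array. NPPA, NPPB, MYH6, GJA5, HCN4, TBX5, HAND2, IRX4 and HBA1 could not be assigned a probe.

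**Figure D4:**
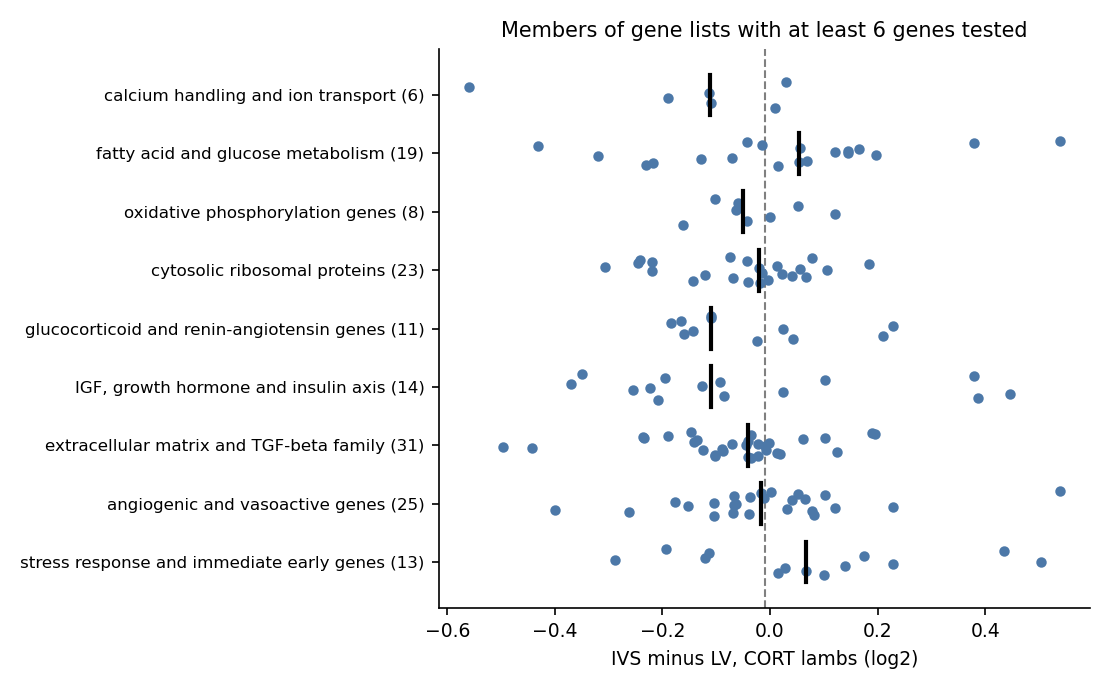
IVS minus LV difference in CORT lambs, in log2 units, of every tested member of the gene lists with at least 6 genes tested, with the number tested in brackets. Each point is 1 gene (its brightest probe), the black bar is the list's median, and the dashed line is the median of all probes tested (-0.01). The medians lie between -0.11 and 0.07, and no gene shown passed the threshold over the 16 arrays, beside 2 of all 766 named genes.

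No marker of other cell types passed the threshold, beside 2 of all 766 named genes. FABP4, the fatty acid carrier of adipocytes and small-vessel endothelium, differed by -1.62 ± 0.47 log2 units between septum and LV, with an adjusted p of 0.133. All 8 septa lay between 5.98 and 6.37 (median 6.31), while the LV samples spread from 6.07 to 9.81 (median 7.54). It was well above background in 1 septum and in 6 LV samples, so its level in the septum, and with it the size of the difference, was poorly measured, and the LV samples were very unequal. Of the 6 adipocyte markers tested of 13, 4 were negative and 2 positive, none past the threshold, with PLIN2 of the lipid droplet at -0.29 ± 0.12 (adjusted p = 0.312). The summed level of these 6 was 14300 to 21830 in the IVS and 12390 to 15040 in the LV, with LPL as its brightest member. HBB, the beta-globin gene of red cells, was at 11.79 to 14.71 in the IVS (median 13.27) and at 12.14 to 15.86 in the LV (median 14.44), a difference of -0.79 ± 0.50 (adjusted p = 0.528). The second HBB probe differed by -0.36 ± 0.57 (adjusted p = 0.823), and both probes may also take up transcripts of related globin genes. PECAM1, a surface protein of endothelium, was at 11.43 to 12.50 in the IVS and at 12.09 to 12.83 in the LV (-0.33 ± 0.14, adjusted p = 0.317), and the summed level of 9 of 16 endothelial markers was 4193 to 7340 in the IVS and 5736 to 8872 in the LV. The 4 fibroblast markers tested of 10 summed to 27770 to 38490 in the IVS and 33460 to 42250 in the LV. The 9 leukocyte markers tested of 32 summed to 1459 to 3462 and 1671 to 2625, and the 2 smooth muscle markers tested of 11 to 9220 to 14260 and 8046 to 20090. The 3 skeletal muscle markers tested of 15 summed to 663.8 to 11170 in the IVS, the high end being slide 3, and to 739.9 to 941.3 in the LV. None of 10 Purkinje cell markers could be assigned a probe, so the conduction tissue of the septum could not be checked, and of 6 atrial markers only NR2F2 was tested (0.04, adjusted p = 0.929). MYH7, MB and TPM1, genes of striated muscle, were bright in both tissues, which does not set ventricle apart from other muscle, with MB, the oxygen store of striated muscle, at 17.98 to 18.25 in both. The part of these cell types in the differences was not tested.

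**Figure D5:**
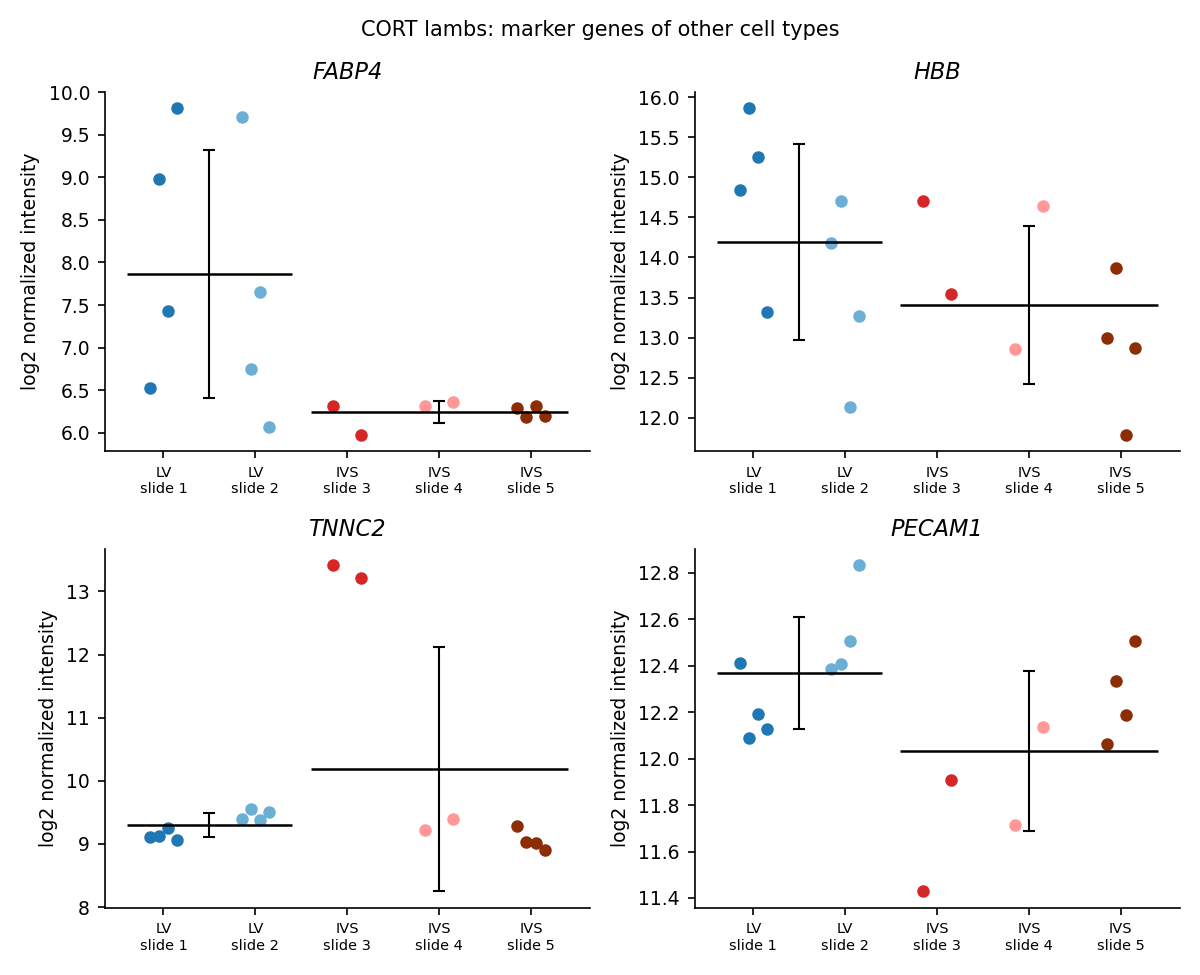
Log2 normalized intensity of FABP4, HBB, TNNC2 and PECAM1 on each of the 16 CORT arrays, grouped by slide. Each point is 1 array, and lines and bars are the mean and SD of the 8 LV and the 8 IVS arrays. FABP4 was at 5.98 to 6.37 in all septa and spread to 9.81 in the LV, and TNNC2 was above 13 on both slide 3 arrays only.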

How the data were processed

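The authors deposited Feature Extraction 10.1.1.1 output, which holds for every spot a mean intensity and a median background (arbitrary units), and 1 log2 matrix per tissue, normalized within that tissue and not used here. The 16 CORT arrays were corrected with normexp (offset 50) on all spots and quantile normalized together without control spots, in limma 3.58.1 under R 4.3.3. Spots flagged as outliers (0.0703%) were left out, and replicate spots were combined by their mean log2 value. Probes entered the tests when their raw intensity exceeded 1.1 times the 95th percentile of the 77 negative controls on at least 8 arrays. The difference IVS minus LV was tested with lmFit and eBayes, two-sided, at a Benjamini-Hochberg p under 0.05 over all probes, and single genes also by exact permutation over 12870 assignments. Control lambs were processed in the same way, and the interaction over all 32 arrays. The main fit was tested on simulated data with independent noise, without slide effects or shared lambs, so the simulation does not cover these. Other tables were made in Python 3.11.15.

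Probes were named through the symbols, gene IDs, accessions and older names in the files and a sheep gene table, 1 probe per gene, the brightest. Named are the genes past the threshold, list members past it, and a fixed set of chamber, cortisol and globin genes. The ends of each list, genes near the threshold, cell type markers and 4 unnamed probes were added after their values were seen. The members and lists were chosen with earlier results of these data known. Replicate numbers were used to pair arrays only in alternative fits, over all numbers and in the slide 5 comparison. In the latter, deviations of the 4 same-numbered arrays from their tissue means correlated at 0.37 to 0.62. The numbers come from the labels, which do not state whether equal numbers mean 1 lamb, and these correlations do not settle it. The number of arrays limits the precision. Alternatives were other background corrections, normalizations and filters, slide or replicate number as a block, array weights, single slides, and each array left out. The result of 1 gene is not reported here.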

Additional observations from a re-analysis of the deposited data

Results flagged for a closer look

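Several genes were far higher on 1 array of a tissue than on the other 7, and some of these arrays had a counterpart in the other tissue. Genes induced by interferon stood out on CORT septum replicate 1 and on CORT LV replicate 2. MX2 was at log2 12.87 on that septum (next highest 9.24) and at 13.31 on that LV array (next 9.41), MX1 at 13.21 (10.95) and 13.41 (11.01), RTP4 at 13.85 (11.80) and 13.79 (11.84), and CXCL10, a chemokine, at 10.97 (7.67) and 10.94 (7.98). ISG15 was at 13.80 and 14.30 on the same arrays. Plasma protein genes of the liver stood out on CORT septum replicate 2 and CORT LV replicate 1: AHSG was at 10.04 (next 6.54) and 11.20 (6.59), and TTR at 10.75 (7.62) and 12.06 (6.61). On septum replicate 2 and LV replicate 1 MX2 was at 8.72 and 8.42, and on septum replicate 1 and LV replicate 2 AHSG was at 6.20 and 6.11. TTR was at its next highest level on these last arrays, 7.62 and 6.61. PRL, the pituitary hormone prolactin, was at 12.95 on CORT septum replicate 8 (next 6.75), on its second probe at 12.44, and at no more than 7.91 in the LV. GH, the gene of growth hormone, was at 7.87 on the same septum (next 6.23), although its probe was too dim on most arrays to be tested. SLC2A1, a glucose transporter, was at 9.53 on CORT septum replicate 5 (7.23), while its second probe did not exceed 7.39 on any septum. PLAU, the urokinase-type plasminogen activator, was at 10.18 on LV replicate 2 (7.84).

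Smaller gaps were found for VEGFA and JUN on CORT septum replicate 1 (11.67, next 10.94, and 14.27, next 13.29), for PTGS1 on LV replicate 2 (10.69, next 10.14), for GH and IGFBP6 on LV replicate 6 (6.40, next 6.19, and 12.20, next lowest 12.39), and for PPIB, FABP4 and PLAU on septum replicate 2 (12.09, 5.98 and 7.09, where the next lowest septa were at 12.53, 6.19 and 7.59). Of 122 groups of 8 values, 24 had such an array by Dixon's test. Chance flags about 1 in 20 groups, but the genes of the first paragraph were chosen because 1 array stood out, so this count cannot be set against chance. No cause was tested.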

How the results depend on the processing

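Of 22 probes past the threshold in CORT lambs, the count became 4 with the scanner's processed signal, 37 with cyclic loess, 39 with array medians only (34 higher and 5 lower in the IVS, beside 15 and 7), 38 with a filter passed on all arrays, 187 with arrays weighted by quality, 40 with all 32 arrays normalized together, 3217 with IVS slide 3 alone against the LV, 0 with IVS slide 4 alone, 0 with LV slide 1 alone and 66 with LV slide 2 alone. Of 24 in the slide 5 comparison it became 7 and 10 with offsets of 0 and 16, 4 with cyclic loess, 38 with the filter on all arrays, 12 with trended and robust eBayes, 198 with array weights and 147 with LV slide 2 alone. Of 67 in Control lambs it became 15 with an offset of 0, 5 with the processed signal, 0 with array medians only, 16 with trended and robust eBayes and, with settings chosen after seeing the data, 12 without IVS slide 3, 8 without the 3 septa that stand apart and 38 with the septum slide scanned with the LV. Slide as a random block left 0 probes in each of these 3 comparisons (limma, 494, 893 and 920 at an unadjusted p under 0.05). Without slide 3, a setting also chosen after seeing the data, 43 passed in CORT lambs. Leaving out 1 array gave 1 to 61 probes in CORT lambs, 0 to 37 on slide 5 and 8 to 137 in Control lambs. In CORT lambs the count was 61 without LV replicate 3, 2 without LV replicate 5 or 7, 1 without LV replicate 8 or IVS replicate 1 or 6, and 8, 7 and 12 without IVS replicates 3, 4 and 5. On slide 5 it was 0 without LV replicate 5 or 7 or IVS replicate 5, 6 or 8, 1 without LV replicate 1, 6 or 8 or IVS replicate 7, 2 without LV replicate 4 and 37 without LV replicate 2. In Control lambs it was 13, 11, 15, 8, 11 and 9 without LV replicates 2, 3, 4, 5, 6 and 8, and 10, 29, 37, 35, 28 and 137 without IVS replicates 1 to 6. The interaction stayed at 0 in every setting run. HAND1 turned to 0.28 on IVS slide 3 alone (adjusted p = 0.0420) and MYH7 to -0.094 against LV slide 1 alone. The cause of these changes was not tested.

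With the replicate number as a block, 7 probes passed in CORT lambs, 0 in Control lambs (2071 at an unadjusted p under 0.05) and, added after seeing the data, 349 in the slide 5 comparison. In the main fits, arrays with the same number were not treated as pairs. Over all 8 numbers and the probes tested, the correlation of their deviations from the tissue means was -0.14 to 0.63 in CORT lambs and -0.21 to 0.42 in Control lambs. CORT LV replicates 5 to 8 correlated best with the septum of their own number (0.28 to 0.63), while LV replicates 1, 2, 3 and 4 did so with septa 2, 1, 4 and 3 (0.20 to 0.51), a hint from the data that the labels do not settle. The block over all numbers therefore may not pair arrays of the same lamb.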
